A study of Mus musculus with 20 samples.

Results

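The factors described here are the proteins that start and carry out translation, namely the eukaryotic initiation factors 1 to 6 and the elongation factors 1 and 2, with their closely named partners. Members were taken by symbol: every protein-coding mouse gene whose symbol begins with Eif1 to Eif6, Eef1 or Eef2, leaving out the 4 Eif2ak kinases that phosphorylate eIF2. The rule found 67 of the 56941 gene IDs in the count table, and 60 of them had enough reads to be tested. RNA was poly(A)-enriched and sequenced from the mouse microglial line BV-2, which is immortalized, either wild type or labelled RGS10 knockout, after 48 h with medium alone (vehicle) or with interferon gamma (IFNγ) at 10 ng/mL. RGS10 is a regulator of G-protein signaling. Each of the 4 groups had 5 libraries, in which replicates 1 to 3 form batch 1, replicate 4 is batch 2 and replicate 5 is batch 3. The labels do not say how the knockout was made or whether it is a single clone, so genotype and other differences between the lines cannot be told apart.

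Translation initiation begins when eIF2, carrying GTP and the initiator tRNA, joins the small ribosomal subunit together with eIF1, eIF1A, eIF3 and eIF5. The eIF4F complex, made of the cap-binding eIF4E, the scaffold eIF4G and the helicase eIF4A, brings the mRNA to that subunit, which scans to a start codon. Elongation then uses eEF1A to deliver aminoacyl-tRNA, the eEF1B subunits to recharge eEF1A with GTP, and eEF2 to move the ribosome. Many of the mRNAs for these elongation factors carry a terminal oligopyrimidine tract, a run of C and T at the very 5′ end through which mTORC1 controls their translation. The eIF2B complex recharges eIF2 with GTP and is the target of the integrated stress response.

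The libraries held 15866749 to 29157740 counted reads. Rgs10 averaged 63.03 ± 6.62 CPM (read counts scaled to 1e6 per library; SD, n = 5) in wild-type vehicle libraries and 28.2 ± 4.56 in knockout vehicle libraries, a log2 difference of -1.17 ± 0.17 (SE, edgeR adjusted p = 3.23e-05), so reads for the gene remained in the line labelled knockout. Under IFNγ Rgs10 averaged 29.6 CPM in wild type and 24.4 in the knockout, so the wild-type level was near that of the knockout. The log2 difference there was -0.33 ± 0.17 (edgeR adjusted p = 0.13). Of 15 microglia and macrophage markers 14 were tested and Sall1 was at 0, while summed astrocyte markers stayed at or under 1.24 CPM and summed T and B cell markers at or under 0.465 CPM in every library. Summed neuron markers ran from 0.323 to 24.9 CPM and oligodendrocyte markers from 0.774 to 6.78. The IFNγ libraries of batches 2 and 3 stood apart from those of batch 1 in both lines: Malat1, a nuclear RNA, was at 955 and 1514 CPM of plain totals in wild type against 355 to 386 in batch 1, and at 1004 and 1446 CPM in the knockout against 55.9 to 62.7. Results are therefore given by batch and with batch 1 alone as well. Counts are shares of a library, so less of an mRNA in each cell and fewer cells holding it cannot be told apart.

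IFNγ lowered most translation factor mRNAs in both lines, while a small set rose. Together the 67 members took 3.36% to 3.60% of all counted reads in wild-type vehicle libraries and 1.36% to 1.85% in wild-type IFNγ libraries, ranges that did not overlap. In the knockout they took 2.73% to 2.95% under vehicle. Under IFNγ the knockout libraries of batch 1 held 2.29% to 2.32%, and those of batches 2 and 3 held 1.48% and 1.26%. Eef1a1 alone, which encodes eEF1A1, accounted for 1.06% to 1.42% of reads in wild-type vehicle libraries and 0.205% to 0.350% in wild-type IFNγ libraries.

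In wild type, 40 of the 60 tested members fell and 5 rose at an edgeR adjusted p under 0.05. Over all 13755 genes tested 29.9% fell and 29% rose, 58.9% together. The median log2 change of the members was -0.63, against 0.01 for all genes. In the knockout, 36 members fell and 5 rose, where 21.8% of all genes fell and 21.4% rose, 43.2% together, and the median change was -0.38 against -0.02. The libraries of the groups did not overlap for 26 members that were lower and 4 that were higher in wild type, beside 18.2% and 18% of all genes, and for 25 and 3 members in the knockout, beside 14.2% and 13.4%. Batch 1 alone gave 49 lower and 6 higher in wild type, where it called 36.7% of all genes lower and 37.4% higher. In the knockout it gave 38 lower and 9 higher, beside 28.4% and 28.1% of all genes.

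The lines shared most of these calls, as the plot of changes by role shows. Both lines had 33 falls and 3 rises in common, the rises being Eif1, Eif1b and Eif4a2. Wild type alone passed the test for 7 falls (Eef1akmt1, Eif3c, Eif3f, Eif3h, Eif3k, Eif4e2 and Eif6) and 2 rises (Eif4g3 and Eif5). The knockout alone passed it for 3 falls (Eef2kmt, Eif3a and Eif3j2) and 2 rises (Eif1a and Eif4e3). For 10 members neither line passed. Passing in 1 line alone does not show a difference between the lines, which the interaction tests. No member rose in one line and fell in the other.

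**Figure D1:**
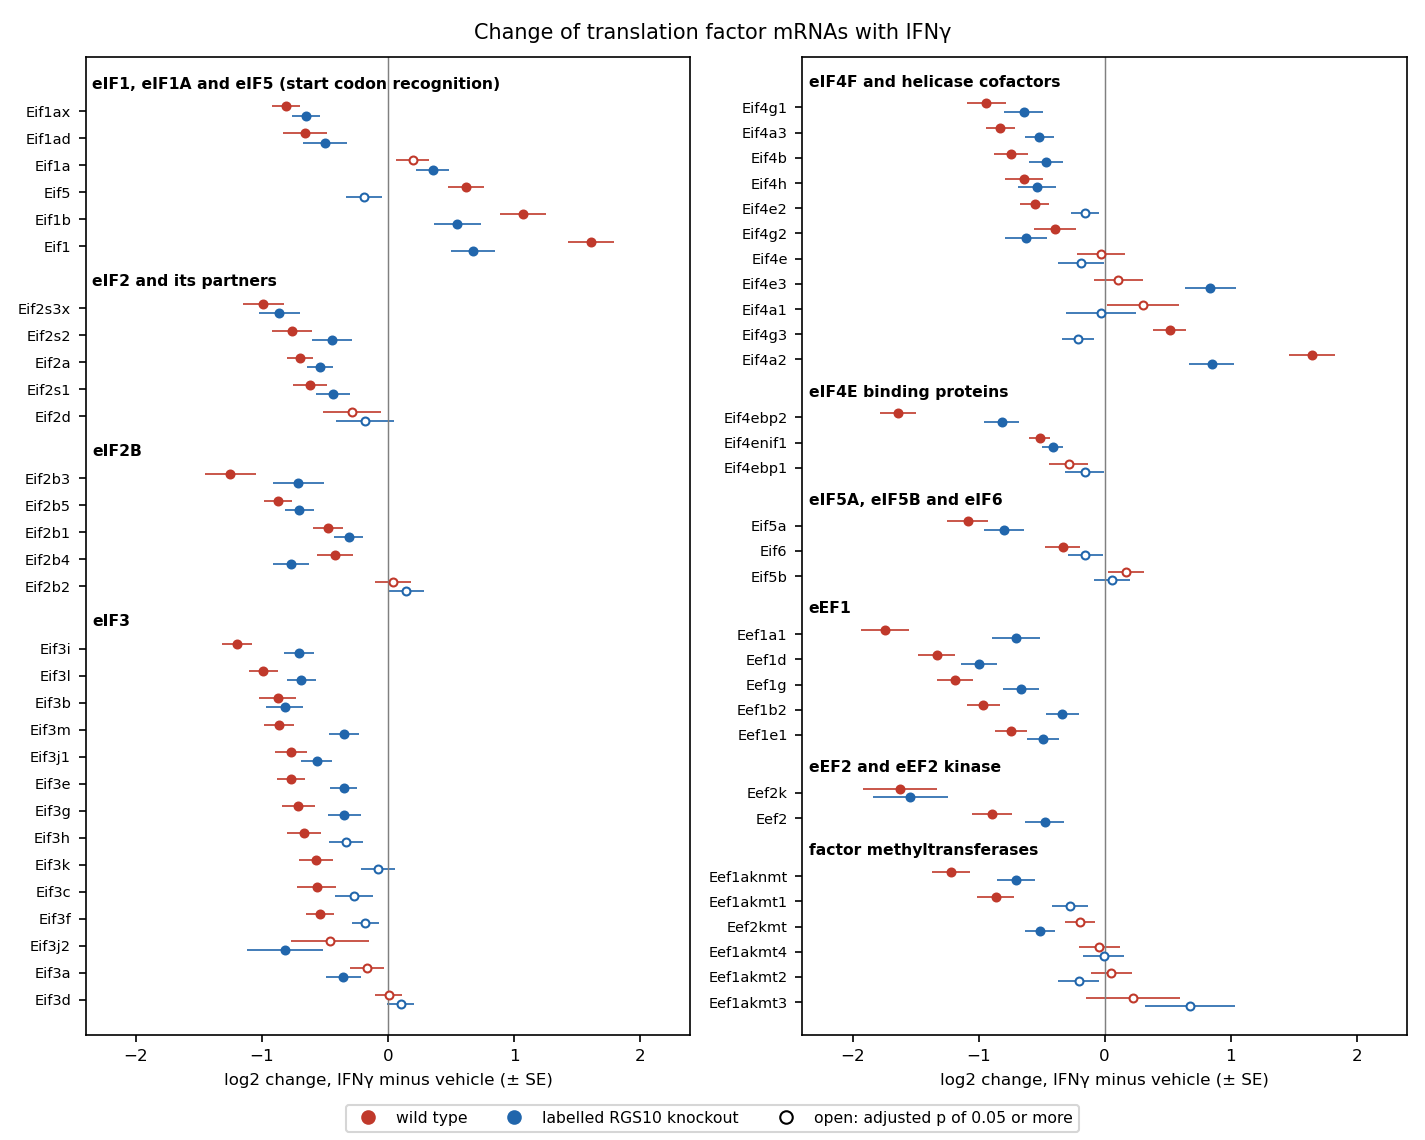
Log2 change with IFNγ (IFNγ minus vehicle, with SE bars) of the 60 tested members, grouped by role, in wild type (red) and the labelled knockout (blue). Open points did not pass the adjusted threshold. In wild type 40 members fell and 5 rose, beside 29.9% and 29% of all genes. The 5 eEF1 genes fell in both lines, where 21.8% of all genes fell in the knockout.

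Start codon recognition held 3 of the 5 members that rose in wild type, namely Eif1, Eif1b and Eif5. Eif1 encodes eIF1, which guards the accuracy of start codon choice in the scanning ribosome. Its level in wild-type vehicle libraries 1 to 5 was 276, 253, 285, 224 and 219 CPM, and in wild-type IFNγ libraries 585, 600.5, 609.98, 1198 and 1027. The knockout had 279, 275, 260.4, 262 and 268 CPM under vehicle and 379.9, 344, 353, 561 and 569 under IFNγ. All IFNγ libraries lay above all vehicle libraries of the same line, the highest values being in batches 2 and 3. The log2 change was 1.61 ± 0.18 in wild type (SE, edgeR adjusted p = 3.77e-07) and 0.68 ± 0.18 in the knockout (edgeR adjusted p = 0.00425).

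Per kb of exon, Eif1 stood at 13.9 ± 4.72 times its paralog Eif1b in wild-type vehicle libraries (SD, n = 5). Eif1b went from 7.59, 7.42, 12.2, 12.7 and 11.99 CPM to 17.8, 18.4, 18.2, 39.1 and 19.5 in wild type, with no overlap. In the knockout Eif1b went from 7.07, 6.79, 7.11, 10.03 and 7.64 to 8.33, 8.27, 7.58, 18.2 and 17.3 CPM, and the batch 1 libraries of the 2 groups lay close together. The changes were 1.07 ± 0.19 and 0.55 ± 0.19 (edgeR adjusted p = 6.09e-05 and 0.0222), and the second was lost in 9 of 20 alternatives, batch 1 alone among them. Eif5, the GTPase-activating partner of eIF2 at the start codon, was at 307, 334, 285, 229.7 and 195 CPM in wild-type vehicle and 385, 375, 377, 387 and 509 in wild-type IFNγ libraries, again without overlap. In the knockout Eif5 had 239, 229, 229, 134 and 177 CPM under vehicle and 189.7, 200.2, 196, 124 and 167 under IFNγ, and the groups overlapped. Eif5 rose by 0.62 ± 0.14 in wild type (edgeR adjusted p = 0.00108), and its value in the knockout was -0.19 ± 0.14 (edgeR adjusted p = 0.29).

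The eIF1A paralogs are near copies of each other, so reads may be shared between them. Eif1ax fell in both lines, by log2 changes of -0.81 ± 0.11 and -0.65 ± 0.11 (edgeR adjusted p = 3.85e-06 and 0.000105). Eif1a had 0.20 in wild type (edgeR adjusted p = 0.20) and rose in the knockout by 0.35 ± 0.13 (edgeR adjusted p = 0.0328) where its range was 152 to 186 CPM under vehicle and 209.7 to 248 under IFNγ. Per kb of exon, the ratio of Eif1ax to Eif1a was 0.985 ± 0.0862 in wild-type vehicle and 0.503 ± 0.1701 in wild-type IFNγ libraries (SD, n = 5). In the knockout the ratio was 1.06 ± 0.0893 and then 0.543 ± 0.124. Eif1ad, an eIF1A domain gene, fell in both lines (-0.66 and -0.50).

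Within eIF4F in wild type, the less abundant helicase and scaffold paralogs rose and the scaffold's abundant paralog fell. Eif4a2 encodes the second eIF4A helicase. Its wild-type vehicle libraries had 93.97, 86.9, 82.7, 121 and 149 CPM and its wild-type IFNγ libraries 244, 232, 237, 558 and 459.9. Knockout libraries had 84.3, 77.2, 81.96, 85.6 and 66.8 under vehicle and 107, 110.1, 117, 197 and 244 under IFNγ. Every IFNγ library was above every vehicle library of its line, and the increase was 1.65 ± 0.18 in wild type and 0.85 ± 0.18 in the knockout (log2, edgeR adjusted p = 2.75e-07 and 0.000744).

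Eif4a1, the main eIF4A helicase, did not pass in either line and its batches disagreed. Wild type had 2497, 2495, 2760.1, 1628 and 1485 CPM under vehicle and 1773, 1757, 1779, 6090.1 and 2903 under IFNγ, where replicates 1 to 3 were low and replicate 4 was far above all others. Its log2 differences within batches 1, 2 and 3 were -0.54, 1.90 and 0.97. Per kb of exon the ratio of Eif4a1 to Eif4a2 was 32.7, 35.4, 41.1, 16.6 and 12.3 in wild-type vehicle and 8.93, 9.33, 9.23, 13.4 and 7.77 in wild-type IFNγ libraries. The lower ratio under IFNγ held within each batch in wild type. In the knockout the mean ratio was 25.9 ± 4.16 under vehicle and 14.9 ± 4.98 under IFNγ (SD, n = 5).

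Eif4g3, a scaffold paralog, had 82.4, 80.3, 67.3, 107 and 126 CPM in wild-type vehicle and 131, 119, 129, 157 and 112 in wild-type IFNγ libraries. The groups overlapped, and in batch 3 the vehicle library was above the IFNγ library. The increase of 0.52 ± 0.13 (edgeR adjusted p = 0.00198) was 0.72, 0.55 and -0.17 by batch. With plain library totals it no longer passed. Eif4g1, the main scaffold, fell, with log2 changes of -0.94 ± 0.16 in wild type and -0.64 ± 0.16 in the knockout (edgeR adjusted p = 3.94e-05 and 0.00264). The ratio of Eif4g1 to Eif4g3 per kb was 19.4 ± 8.43 in wild-type vehicle and 6.72 ± 1.85 in wild-type IFNγ libraries. In the knockout it was 28.7 ± 5.72 and 22.9 ± 10.2, ranges that overlapped. The helicase cofactors Eif4b and Eif4h fell in both lines, by -0.75 and -0.64 in wild type and -0.47 and -0.53 in the knockout.

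The cap-binding proteins did not move together. Eif4e, the cap-binding subunit itself, had -0.03 in wild type and -0.19 in the knockout (edgeR adjusted p = 0.91 and 0.43). Eif4e2, a cap-binding paralog that does not join eIF4G, fell in wild type, with a log2 change of -0.55 ± 0.11 (edgeR adjusted p = 0.000375). Eif4e3, at low levels, was at 6.21, 5.26, 5.56, 6.73 and 4.205 CPM in knockout vehicle and 12.9, 14.4, 11.1, 4.65 and 8.32 in knockout IFNγ libraries. It rose there by 0.84 ± 0.20 (edgeR adjusted p = 0.00254), although in batch 2 the IFNγ library was the lower one.

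Eif4ebp2 had the largest fall among the eIF4E binding proteins, which block the meeting of eIF4E and eIF4G. Wild-type vehicle libraries held 188, 208, 177, 225 and 205 CPM and wild-type IFNγ libraries 73.3, 69.9, 74.1, 53.7 and 51.9. The knockout had 115, 124, 139, 183 and 123 under vehicle and 81.8, 83.96, 85.8, 63.4 and 71.8 under IFNγ. Neither pair of groups overlapped, and Eif4ebp2 fell, with log2 changes of -1.64 ± 0.14 and -0.82 ± 0.14 (edgeR adjusted p = 1.26e-08 and 0.0001). Eif4ebp1 had -0.29 and -0.16 and passed in neither line (edgeR adjusted p = 0.12 and 0.42).

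**Figure D2:**
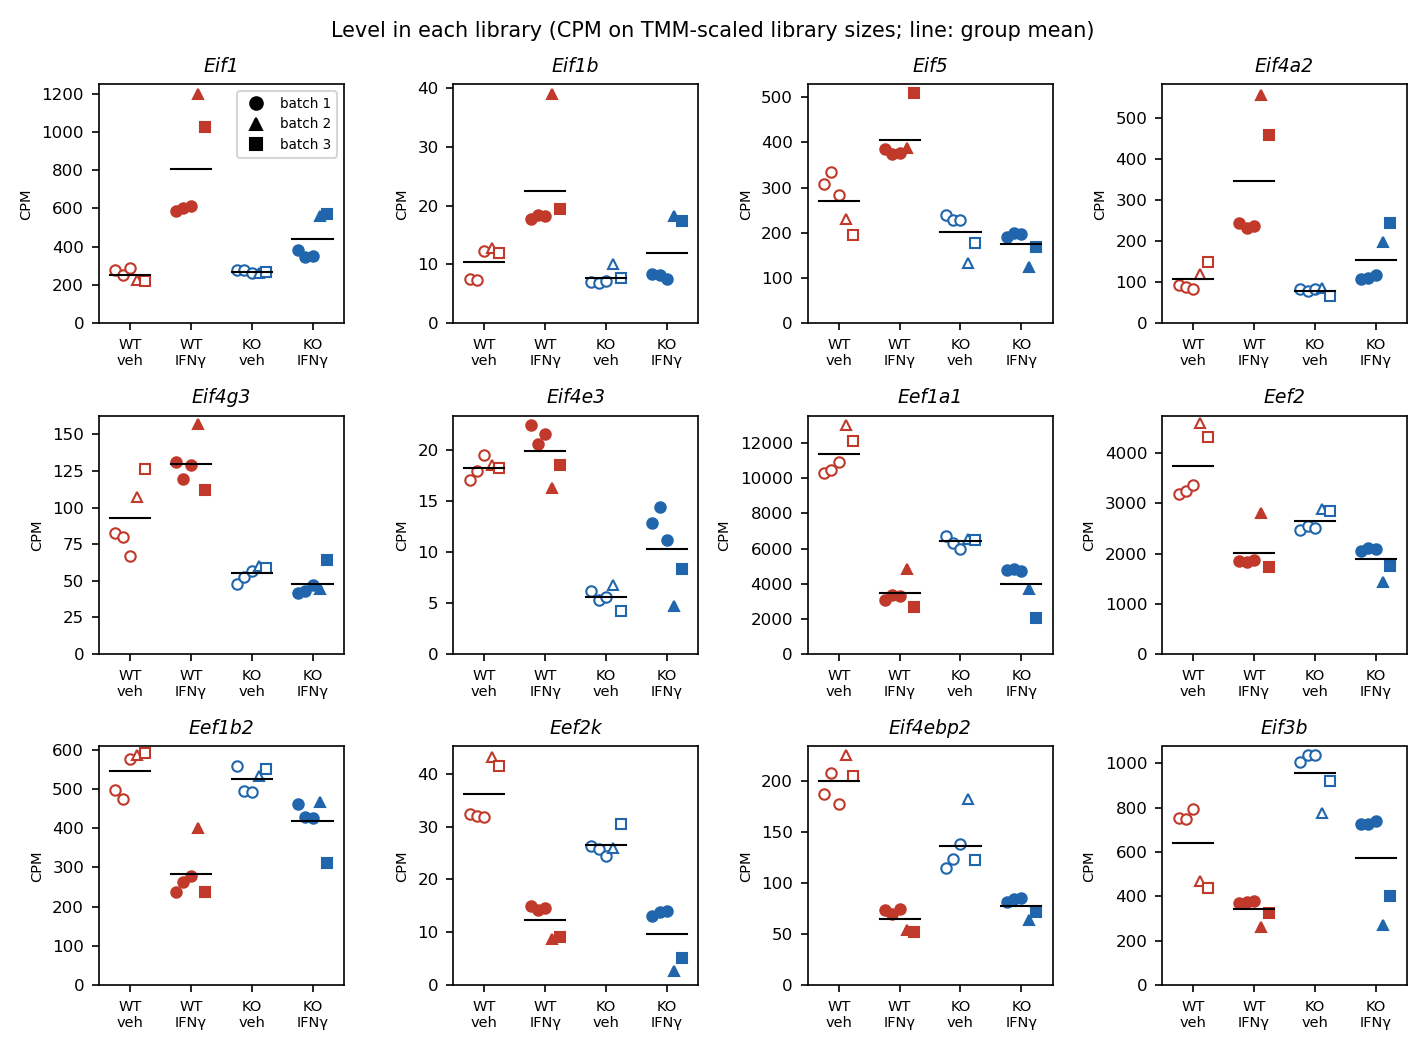
CPM of 12 members in each of the 20 libraries, scaled by TMM, with wild type in red, the labelled knockout in blue, vehicle open and IFNγ filled. Symbols give the batch and lines the group means. Eif1 and Eif4a2 were higher in all IFNγ libraries than in all vehicle libraries of the same line, and Eef1a1 and Eif4ebp2 were lower.

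Of the 5 tested genes of eIF2 and its partners, 4 fell in each line, beside 29.9% (wild type) and 21.8% (knockout) of all genes. Eif2s3x encodes the gamma subunit, which binds GTP and the initiator tRNA. It had 411, 454, 433, 360.3 and 343 CPM in wild-type vehicle and 218, 199.6, 201, 206 and 174 in wild-type IFNγ libraries, without overlap, and fell, with a log2 change of -0.99 ± 0.16 (edgeR adjusted p = 3.43e-05). Eif2s1, the alpha subunit that the stress kinases phosphorylate, fell, with log2 changes of -0.62 and -0.44 (edgeR adjusted p = 0.000557 and 0.0125). Eif2s2, the beta subunit, fell, with log2 changes of -0.76 and -0.44 (edgeR adjusted p = 0.000379 and 0.0289). Eif2d, a factor separate from eIF2, passed in neither line.

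The exchange factor eIF2B fell in 4 of its 5 subunits in each line, beside 29.9% (wild type) and 21.8% (knockout) of all genes. Its gamma subunit gene Eif2b3 had 42.4, 40.4, 42.9, 26.6 and 24.7 CPM in wild-type vehicle and 14.9, 18.4, 19.3, 12.6 and 9.22 in wild-type IFNγ libraries. In the knockout Eif2b3 had 36.6, 38.7, 35.1, 27.7 and 32.5 under vehicle and 33.3, 32.2, 31.8, 11.01 and 8.49 under IFNγ. The knockout IFNγ libraries of batch 1 were close to vehicle and those of batches 2 and 3 far below it. Changes of Eif2b3 were -1.25 ± 0.20 and -0.71 ± 0.20 (log2, edgeR adjusted p = 2.66e-05 and 0.0072). Eif2b5, the catalytic subunit, fell, with log2 changes of -0.87 ± 0.11 and -0.70 ± 0.11 (edgeR adjusted p = 2.25e-06 and 6.37e-05). Eif2b2 was the subunit that passed in neither line (0.04 and 0.14). The wild-type falls of Eif2b1 and Eif2b4 did not keep 1 sign in the 3 batches.

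Among the 14 tested genes of eIF3, the largest initiation complex, 11 fell in wild type and 9 in the knockout, and none rose. Median changes were -0.69 and -0.35. Of all genes 29.9% fell and 29% rose in wild type, and 21.8% fell and 21.4% rose in the knockout. Eif3i had 290.3, 283, 300, 242 and 254 CPM in wild-type vehicle and 116, 124, 125, 130.4 and 101 in wild-type IFNγ libraries. In the knockout Eif3i had 174, 170.1, 157, 150.5 and 149 under vehicle and 119, 118, 119.7, 83.4 and 60.4 under IFNγ. The groups were apart in each line, and the changes were -1.20 ± 0.12 and -0.70 ± 0.12 (log2, edgeR adjusted p = 1.07e-07 and 0.000119). Eif3l fell, with log2 changes of -0.99 and -0.69 (edgeR adjusted p = 6e-07 and 9.11e-05). Eif3d, the subunit that can bind the cap, was at 0.01 and 0.10 and passed in neither line. Eif3a, the largest subunit, was at -0.17 in wild type and fell in the knockout, with a log2 change of -0.36 ± 0.14 (edgeR adjusted p = 0.0429). Eif3j1 and Eif3j2 are near copies of each other, so reads may be shared between them.

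Among the elongation factors, the 5 tested eEF1 genes, Eef2 and its kinase Eef2k fell in both lines. Beside them, 29.9% of all genes fell in wild type and 21.8% in the knockout. Eef1a1, the most abundant member per kb of exon in every group, had 10298, 10437, 10934, 13016 and 12135 CPM in wild-type vehicle and 3087, 3343, 3308, 4861 and 2690.5 in wild-type IFNγ libraries. The knockout had 6686, 6341, 5964, 6560.5 and 6491 under vehicle and 4759.9, 4837, 4696, 3696 and 2042 under IFNγ. No IFNγ library reached a vehicle library of its line, and Eef1a1 fell, with log2 changes of -1.74 ± 0.19 in wild type and -0.70 ± 0.19 in the knockout (edgeR adjusted p = 3.08e-07 and 0.00513). Eef1a1 has processed pseudogenes, and how the authors' counting treated reads that fit several places is not given in the sources used here.

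The eEF1B subunits recharge eEF1A with GTP. Eef1b2 had 496, 475, 575, 587 and 590.2 CPM in wild-type vehicle and 237, 263, 277, 401 and 237 in wild-type IFNγ libraries. Its knockout libraries had 558, 494, 491, 534 and 549.6 under vehicle and 462, 429, 425, 466 and 310.4 under IFNγ, a narrower gap without overlap. Eef1b2 fell, with log2 changes of -0.96 ± 0.13 and -0.34 ± 0.13 (edgeR adjusted p = 4.01e-06 and 0.0431), and the knockout call was lost in 13 of 20 alternatives. Eef1d fell, with log2 changes of -1.33 ± 0.15 and -0.998 ± 0.15 (edgeR adjusted p = 2.97e-07 and 2.38e-05), and Eef1g with -1.19 and -0.66. Eef1e1, which sits in the tRNA synthetase complex, fell, with log2 changes of -0.74 and -0.49.

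Eef2, the translocation factor, had 3180.03, 3253, 3367, 4590.4 and 4329 CPM in wild-type vehicle and 1859, 1827, 1876, 2806 and 1726 in wild-type IFNγ libraries. In the knockout Eef2 had 2468, 2556, 2504, 2895 and 2839 under vehicle and 2049.5, 2111, 2081, 1436 and 1752 under IFNγ. The groups did not overlap in either line. Eef2 fell, with log2 changes of -0.89 ± 0.16 and -0.48 ± 0.16 (edgeR adjusted p = 6.72e-05 and 0.0183). Eef2k encodes the kinase that switches eEF2 off. It had 32.4, 32.1, 31.8, 43.1 and 41.5 CPM in wild-type vehicle and 14.98, 14.1, 14.6, 8.65 and 9.096 in wild-type IFNγ libraries. In the knockout Eef2k had 26.3, 25.7, 24.5, 25.9 and 30.6 under vehicle and 13.1, 13.8, 14.04, 2.61 and 5.18 under IFNγ, lowest in batches 2 and 3. Its changes were -1.62 ± 0.29 and -1.54 ± 0.30 (edgeR adjusted p = 9.63e-05 and 0.000357).

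Sequence at the start site was examined because many elongation factor mRNAs are known to begin with a pyrimidine tract. RefSeq promoter sequences on GRCm38.p6 were matched by symbol to 51 of the 67 members. Each window shown runs from 8 bases before the annotated start to 22 bases from it, 5′ to 3′ on the gene's strand. Capitals mark the first run of at least 7 C or T that begins with C within 8 bases of the start. In Eif3l a further run that meets this rule follows the marked one and is left in lower case. The first 4 genes fell in wild type, and the last 3 rose. For the genes on the minus strand (Eef1a1 and Eif2s3x) the sequence is the reverse complement of the reference. The windows are Eef1a1 at chr9:78481703-78481732 (minus), Eif2s3x at chrX:94212630-94212659 (minus), Eif3f at chr7:108934407-108934436 (plus), Eif3l at chr15:79075215-79075244 (plus), Eif1 at chr11:100319941-100319970 (plus), Eif4a2 at chr16:23107460-23107489 (plus) and Eif5 at chr12:111538093-111538122 (plus).
Eef1a1: ccgCCCTCTTCCCgagggtgggggagaacg
Eif2s3x: gcattttCCTTTTCTCTCCgagcaagatgg
Eif3f: taggCTCTCTCTCTTTCTCggcaagatggc
Eif3l: gttCTTCTTCCgctctctcccacgggcttc
Eif1: cgtcacaggggcggctatataagtgaatac
Eif4a2: aaccccgtaggagcagggcggccgaggagc
Eif5: acgtgcatgcgagccaatgacaagagaagt

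Such a tract was found in 7 of the 51 members (13.7%) and in 11.3% of 9549 tested genes with a promoter entry, a share near that of the other genes. By the wild-type call, the tract was in 5 of 31 members that fell, 0 of 5 that rose and 1 of 10 that did not pass. The 5 that rose are too few to set against 11.3% of genes. The marked tract in the 4 windows shown was 8 to 15 bases long. Windows follow the annotated start, which can differ from the start used in BV-2 cells. Of 9 factors on a list of known tract-bearing mRNAs (Eef1a1, Eef1b2, Eef1d, Eef1g, Eef2, Eif3e, Eif3f, Eif3h and Eif4b), 9 fell in wild type and 7 in the knockout, with median changes of -0.89 and -0.47. All 9 are members, and of the 60 tested members 40 fell in wild type and 36 in the knockout, with medians of -0.63 and -0.38. Of all genes 29.9% fell in wild type and 21.8% in the knockout. On this list the search marked a tract in Eef1a1 and Eif3f. It marked none in Eef1b2, Eef2 and Eif4b, and Eef1d, Eef1g, Eif3e and Eif3h had no promoter entry. The search can therefore miss tracts that are known.

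Among the late initiation factors, Eif5a fell most. It encodes eIF5A, which carries the modified residue hypusine and helps ribosomes through stalls. Eif5a had 2157, 2099.9, 2500, 1234 and 1158 CPM in wild-type vehicle and 789, 833, 866, 894 and 722 in wild-type IFNγ libraries, and changed by -1.09 ± 0.16 there and -0.80 ± 0.16 in the knockout (log2, edgeR adjusted p = 1.06e-05 and 0.000526). The groups did not overlap in either line. Eif5b, which joins the ribosomal subunits, had 0.17 and 0.06 and passed in neither line. Eif6, which keeps the large subunit apart from the small one, fell in wild type, with a log2 change of -0.33 ± 0.14 (edgeR adjusted p = 0.0448), a call lost in 12 of 20 alternatives.

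The methyltransferases that modify eEF1A and eEF2 were mixed. Eef1aknmt fell from 51.3, 49.5, 51.9, 44.6 and 43.9 CPM to 25.5, 25.98, 28.97, 12.3 and 14.8 in wild type, without overlap. Its changes were -1.22 ± 0.15 and -0.70 ± 0.15 (log2, edgeR adjusted p = 1.39e-06 and 0.00089). Eef1akmt1 fell in wild type, with a log2 change of -0.87, and Eef2kmt in the knockout, with -0.51 (edgeR adjusted p = 4.11e-05 and 0.00179). Eef1akmt2, Eef1akmt3 and Eef1akmt4 passed in neither line.

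Batches gave the same direction for the set as a whole with IFNγ and different sizes. The median member difference in batches 1, 2 and 3 was -0.73, -0.35 and -0.49 in wild type and -0.25, -0.59 and -0.72 in the knockout. Of the calls, 39 of 45 in wild type and 40 of 41 in the knockout had 1 sign in the 3 batches. The exceptions in wild type were Eif2b1, Eif2b4, Eif4g2, Eif4g3, Eif4h and Eif6, and in the knockout Eif4e3. Batches 2 and 3 have 1 library per group, so a value there has no replicate.

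**Figure D3:**
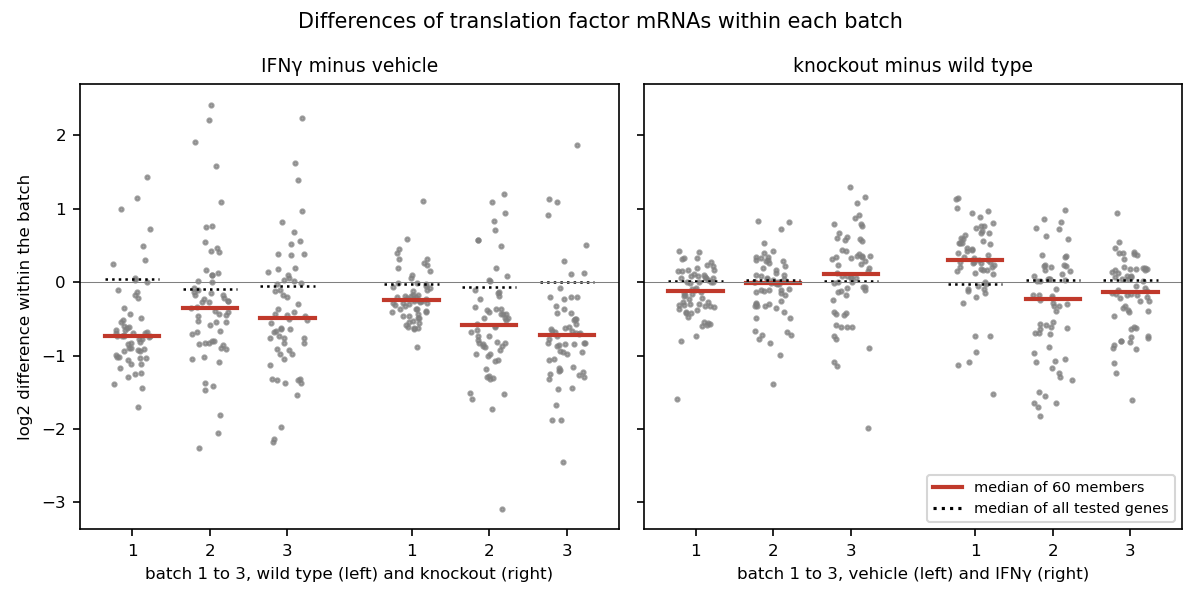
Log2 differences (CPM with 0.5 added) of the 60 members within batches 1, 2 and 3, one grey point per gene, for IFNγ minus vehicle (left panel) and knockout minus wild type (right panel). Red lines are member medians and dotted lines the medians of all tested genes. With IFNγ all 6 member medians are below zero, while the genotype medians under IFNγ are 0.30, -0.23 and -0.13.

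Between the lines under vehicle, 10 members were lower and 5 higher in the knockout, where 14.8% of all genes were lower and 12.5% higher. The median member difference was -0.03 against 0.03 for all genes. With plain library totals in place of TMM the split was 6 lower and 8 higher, beside 11.4% and 11.5% of all genes. Batch 1 alone gave 31 lower and 10 higher, beside 30% and 28.4% of all genes. Libraries did not overlap for 11 members that were lower and 5 that were higher, beside 13.2% and 11.8% of all genes. Of the 15 calls, 14 had 1 sign in the 3 batches, the exception being Eif2b1.

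Eif4e3, a low-level cap-binding paralog, differed most: wild-type vehicle libraries had 17.01, 17.9, 19.5, 18.5 and 18.2 CPM and knockout vehicle libraries 6.21, 5.26, 5.56, 6.73 and 4.205. The ranges were far apart, with a log2 difference of -1.71 ± 0.20 (edgeR adjusted p = 2.63e-06). Eef1a1 was lower in the knockout, with a log2 difference of -0.83 ± 0.19 (edgeR adjusted p = 0.0023), without overlap. Eif3i had a difference of -0.77 ± 0.12 (edgeR adjusted p = 5.89e-05), Eif4g3 of -0.72 ± 0.13 (edgeR adjusted p = 0.00027) and Eif2s3x of -0.56 ± 0.16 (edgeR adjusted p = 0.0127). Eef2 was lower, with a log2 difference of -0.49 ± 0.16 (edgeR adjusted p = 0.023).

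The 5 members higher in the knockout under vehicle were Eif6, Eif3b, Eif3m, Eef1akmt2 and Eef2kmt. Eif6 had 107, 104, 128, 55.2 and 56.3 CPM in wild-type vehicle and 157, 151, 144, 98.95 and 126 in knockout vehicle libraries. Levels were lower in replicates 4 and 5 in both lines, and the knockout was higher within each batch (0.41, 0.84 and 1.16). The difference was 0.66 ± 0.14 (log2, edgeR adjusted p = 0.00129). Eif3b, a scaffold subunit of eIF3, had 755, 749, 795, 471 and 438 CPM in wild type and 1006, 1035, 1036, 775 and 921 in the knockout, higher by 0.62 ± 0.15 (edgeR adjusted p = 0.00325). Eif3m was higher by 0.34 ± 0.12 (edgeR adjusted p = 0.0355), a call lost in 12 of 20 alternatives.

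Under IFNγ, 17 members were higher and 10 lower in the knockout than in wild type, where 20% of all genes were higher and 19% lower. Medians were 0.19 for the members and 0.01 for all genes. The batches disagreed: the member median was 0.30 in batch 1, -0.23 in batch 2 and -0.13 in batch 3. Batch 1 alone gave 42 higher and 9 lower, beside 35.8% and 33.5% of all genes. Plain library totals gave 20 higher and 7 lower, beside 22% and 13.3%. Non-overlapping libraries were fewer, with 1 member higher (Eif3m) and 5 lower, beside 6.53% and 8.57% of all genes. Of the 27 calls, 22 had 1 sign in the 3 batches, and the exceptions were Eif2b3, Eif2s2, Eif3c, Eif3h and Eif3k.

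Among the 10 members lower in the knockout under IFNγ, the scaffold paralog Eif4g3 differed most. Eif4g3 had 131, 119, 129, 157 and 112 CPM in wild-type IFNγ and 41.8, 42.9, 46.8, 44.3 and 64.3 in knockout IFNγ libraries, without overlap, a log2 difference of -1.45 ± 0.13 (edgeR adjusted p = 7.49e-08). Eif5 had 385, 375, 377, 387 and 509 and 189.7, 200.2, 196, 124 and 167 CPM, also apart, with -1.25 ± 0.15 (edgeR adjusted p = 1.66e-06). Eif4a2 differed by -1.15 ± 0.18, Eif1b by -0.94 ± 0.18 and Eif1 by -0.85 ± 0.18 (edgeR adjusted p = 4.04e-05, 0.00044 and 0.000714). Eif4e3 stayed lower in the knockout, with a log2 difference of -0.98 ± 0.20 (edgeR adjusted p = 0.00065). Eif4a1 was lower, with a log2 difference of -0.71 ± 0.28 (edgeR adjusted p = 0.0492), with -0.16, -1.29 and -1.24 in the 3 batches.

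The members higher in the knockout under IFNγ included 7 of the 14 eIF3 genes, and 1 eIF3 gene was lower. Of all genes 20% were higher and 19% lower. Among the 7, Eif3c, Eif3h and Eif3k did not keep 1 sign in the 3 batches. Eif3m had 78.7, 76.6, 82.5, 87.1 and 81.1 CPM in wild-type IFNγ and 179, 172, 178, 134 and 92.9 in knockout IFNγ libraries, with the gap narrowest in batch 3. It differed by 0.87 ± 0.12 (log2, edgeR adjusted p = 1.18e-05). Eif6 was higher by 0.84 ± 0.14 (edgeR adjusted p = 9.1e-05), Eif3b by 0.67 ± 0.15 (edgeR adjusted p = 0.00114) and Eef1b2 by 0.58 ± 0.13 (edgeR adjusted p = 0.00156). Eif3b, Eif3m and Eif6 were higher in the knockout under both treatments, and Eif2s3x, Eif4e3, Eif4g3 and Eif5 were lower under both.

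**Figure D4:**
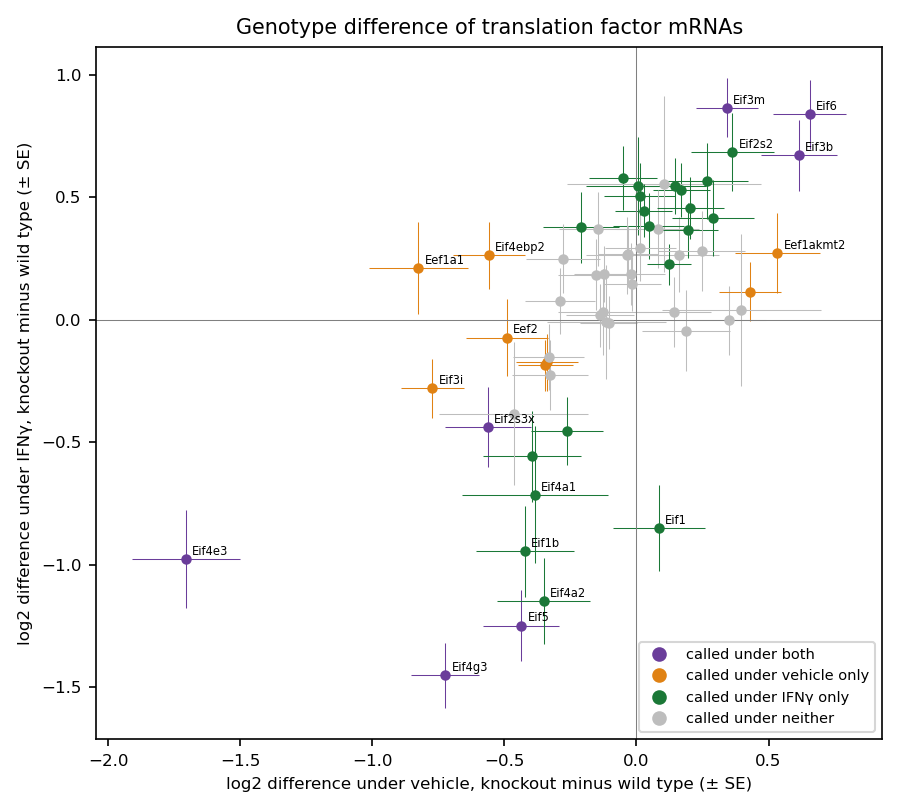
Log2 difference between the lines (knockout minus wild type, with SE bars) under vehicle (horizontal axis) and under IFNγ (vertical axis) for the 60 tested members, coloured by where the difference passed the threshold. Members with large differences are named. Eif4e3 is lowest under vehicle and Eif4g3 lowest under IFNγ, while Eif6, Eif3b and Eif3m lie at the upper right.

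Whether the response to IFNγ differed between the lines was tested as an interaction. It passed for 3 members with a positive difference and 3 with a negative one, where 3.64% and 2.86% of all genes passed, 6.5% together. Eef1a1 (1.04 ± 0.26), Eif4ebp2 (0.82 ± 0.19) and Eef1b2 (0.63 ± 0.18) had a smaller fall in the knockout (edgeR adjusted p = 0.0228, 0.0149 and 0.0456). Eif1 (-0.94 ± 0.25) rose less in the knockout, and Eif5 (-0.81 ± 0.20) and Eif4g3 (-0.73 ± 0.18) rose in wild type without passing in the knockout (edgeR adjusted p = 0.0276, 0.021 and 0.0218).

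The estimate was above zero for 46 of the 60 members, with a median of 0.18 against 0.02 for all genes. That median was 0.52 in batch 1, -0.22 in batch 2 and -0.32 in batch 3. Batch 1 alone gave 48 positive and 5 negative calls, beside 29.7% and 21.6% of all genes. None of the 6 calls passed in all 30 alternatives, and without a batch term edgeR passed 0 members (12 at an unadjusted p under 0.05), where with it DESeq2 passed 7 positive and 4 negative and limma-voom 3 and 3. Eif1, Eif5, Eef1a1, Eif4ebp2 and Eef1b2 kept 1 sign in the 3 batches, and Eif4g3 was -0.98, -0.98 and 0.30.

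Genes that act around the factors were counted from lists of related genes. Of all genes 29% rose and 29.9% fell with IFNγ in wild type, and 21.4% and 21.8% in the knockout. Targets of the integrated stress response, which eIF2 phosphorylation sets off, rose in 6 of 10 and fell in 1 with IFNγ in wild type, and rose in 3 and fell in 3 in the knockout. Atf4, its transcription factor, was at 215 to 431 CPM in wild-type vehicle and 655 to 1026 in wild-type IFNγ libraries (1.25 ± 0.17, edgeR adjusted p = 4.55e-06), and was at 0.01 ± 0.17 in the knockout (edgeR adjusted p = 0.97). Ddit3, which encodes CHOP, rose by 3.02 and 1.30, while Asns, the asparagine synthetase gene, fell, with log2 changes of -1.12 and -0.75. Under vehicle 6 of the 10 were higher in the knockout, beside 12.5% of all genes. Among the 6 were Trib3 (1.60 ± 0.19, edgeR adjusted p = 1.8e-06) and Atf4 (0.84 ± 0.17, edgeR adjusted p = 0.000792).

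Of the 7 eIF2 kinases and phosphatase genes, 1 rose and 1 fell in wild type and 2 rose and 1 fell in the knockout. Of all genes 29% rose and 29.9% fell in wild type, and 21.4% and 21.8% in the knockout. Ppp1r15a, the inducible subunit of the eIF2 phosphatase, rose by 2.52 ± 0.25 in wild type and 1.48 ± 0.24 in the knockout (edgeR adjusted p = 7.98e-08 and 6.97e-05). Eif2ak2, which encodes the double-stranded RNA kinase PKR, fell in wild type, with a log2 change of -0.36 ± 0.14 (edgeR adjusted p = 0.0341). Wild-type libraries 1 to 5 had 148, 165, 130, 81.3 and 98.8 CPM under vehicle and 138, 127, 125, 51.4 and 64.8 under IFNγ. The groups overlapped, and the gap was widest in batches 2 and 3.

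In the mTORC1 and MNK pathway 4 of 14 rose and 4 fell in wild type, near the 29% and 29.9% of all genes. In the knockout 1 rose and 4 fell, beside 21.4% and 21.8% of all genes. Deptor, an mTOR inhibitor, ranged over 35.4 to 52.9 CPM in wild-type vehicle and 0.624 to 4.23 in wild-type IFNγ libraries (-4.24 ± 0.50, edgeR adjusted p = 8.95e-07) and fell in the knockout, with a log2 change of -3.96 ± 0.50 (edgeR adjusted p = 4.74e-06). Pdcd4, an inhibitor of eIF4A, fell, with log2 changes of -1.78 ± 0.21 and -1.66 ± 0.20 (edgeR adjusted p = 6.56e-07 and 3.57e-06). Mtor itself was at 0.10 and 0.13 with IFNγ, and lower in the knockout, with a log2 difference of -0.76 ± 0.11 under vehicle (edgeR adjusted p = 3.05e-05).

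Enzymes that make hypusine on eIF5A or diphthamide on eEF2 fell in 5 of 8 in wild type and 6 of 8 in the knockout. Scanning helicases and alternative initiation genes fell in 5 and 4 of 8, Bzw2 with -1.88 ± 0.15 and -1.15 ± 0.15. Termination and recycling genes fell in 2 of 5 in each line (Abce1 and Gspt1). Poly(A) binding proteins and partners fell in 2 and 1 of 5, Pabpc4 with -1.65 ± 0.23 and -1.32 ± 0.23. None of these 4 lists had a member that rose with IFNγ. Of all genes 29% rose and 29.9% fell in wild type, and 21.4% and 21.8% in the knockout.

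The E-box CACGTG, a palindrome bound by MYC and by related factors, was searched in the members' promoters, on both strands in the 300 bases from 250 before to 50 after the start. It occurred in 15 of 51 members (29.4%) and in 11.7% of the 9549 tested genes with an entry. Eef1akmt4 and Eef1akmt4-ece2 share 1 promoter and are both in the 15, of which Eef1akmt4-ece2 and Eif5a2 were not tested. Of the tested members with an entry, it was in 8 of 31 that fell in wild type, 1 of 5 that rose and 4 of 10 that did not pass. Windows of 30 bases, with the motif in capitals, show it in the genes for the translocation factor, its kinase and the eIF4G1 scaffold, which fell, and in Eif1b, which rose. They lie at chr10:81176576-81176605 (Eef2, plus), chr7:120842788-120842817 (Eef2k, plus), chr16:20672661-20672690 (Eif4g1, plus) and chr9:120492570-120492599 (Eif1b, plus).
Eef2: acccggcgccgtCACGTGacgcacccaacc
Eef2k: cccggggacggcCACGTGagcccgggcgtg
Eif4g1: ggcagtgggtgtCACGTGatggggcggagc
Eif1b: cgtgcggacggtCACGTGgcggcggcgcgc

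An interferon response element, GAAA repeated with any pair of bases between, was in 3 of 51 members (5.88%) and 4.00% of tested genes. None of the 5 members that rose in wild type had it in its window, and 5 genes are too few to set against 4.00%. Of 6 tested genes of MYC and its partners, 2 rose and 2 fell in wild type and 3 rose and 2 fell in the knockout. Of all genes 29% rose and 29.9% fell in wild type, and 21.4% and 21.8% in the knockout. A list of 6 genes is too short to compare with these shares. Myc was at 1.63 to 2.17 CPM in wild-type vehicle and 2.03 to 8.55 in wild-type IFNγ libraries (1.88 ± 0.54, edgeR adjusted p = 0.00557). In knockout IFNγ libraries Myc ran from 2.08 to 29.3, the highest being batch 2.

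Other gene groups also changed, and their part in the members' changes was not tested. Proliferation genes fell in 13 of 14 in wild type (median -1.88) and 9 of 14 in the knockout (median -0.79). Of all genes 29.9% and 21.8% fell. Under IFNγ 12 of 14 proliferation genes were higher in the knockout than in wild type, beside 20% of all genes. By batch, that last difference had medians of 0.83, 2.11 and 2.18, beside 0.30, -0.23 and -0.13 for the members. On the list of RNA quality marks 3 of 9 rose in each line, Malat1 by 2.81 and 1.94 and Neat1 by 2.94 and 2.17. Of all genes 29% rose in wild type and 21.4% in the knockout. Batch medians of the list were 1.09, -0.41 and 0.81 in wild type and -0.03, 1.13 and 0.46 in the knockout. Knockout Malat1 did not rise in batch 1, at 48.2 to 67.5 CPM under vehicle and 53.2 to 59.4 under IFNγ. It went from 120 to 1625 CPM in batch 2 and from 52.3 to 1143 in batch 3. Knockout Neat1 in batch 1 was at 31.5 to 48.6 CPM under vehicle and 81.6 to 98.2 under IFNγ. Under IFNγ 5 of the 9 RNA quality marks were lower in the knockout than in wild type and 0 higher. Of all genes 19% were lower and 20% higher. The median difference of the marks was -1.05, with batch medians of -1.41, 0.64 and -0.08.

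The 7 members that were not tested had few or no reads. Eif2s3y, Eif4e1b and Eef1akmt4-ece2 had 0 reads in the 20 libraries and Eif4a3l1 had 2. Eef1a2, the tissue-specific eEF1A paralog, had 68 reads in all, of which 53 were in wild-type IFNγ and 11 in knockout IFNγ libraries. Eif4ebp3 had 53, with 28 in wild-type IFNγ and 22 in knockout IFNγ libraries, and Eif5a2 had 20. At these counts no comparison was made.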

How the data were processed

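Poly(A)-enriched RNA of 20 BV-2 libraries was analysed from the raw counts per gene ID that the authors deposited. The submitters' processing notes list STAR, Trim Galore, FastQC and DESeq2 as tools and GRCm39 as build, without versions or roles. How reads were assigned to genes, with which strand setting and annotation, is not given in the sources used here. Near-identical copies (Eef1a1 and its pseudogenes, Eif1a and Eif1ax, Eif3j1 and Eif3j2, Eif4a3 and Eif4a3l1) are therefore uncertain.

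Symbols came from GENCODE and RefSeq tables on GRCm38, which gave a GENCODE symbol for 52000 of 56941 IDs (91.3%). Of the members 64 matched by GENCODE symbol and 3 by RefSeq alone. Counts were fitted with edgeR 4.0.16 (R 4.3.3; TMM, filterByExpr, robust quasi-likelihood test) for group plus batch over all 20 libraries. P-values were adjusted by Benjamini-Hochberg over 13755 genes with a threshold of 0.05. Levels are CPM on TMM-scaled totals, with depth of 15866749 to 29157740 reads per library. Differences within a batch used log2(CPM + 0.5). The test was tried on simulated data. The labels call the replicates biological without naming separate cultures, so a p-value reflects spread among libraries that may be technical. No 2 libraries of a group agreed within counting noise.

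Alternatives were DESeq2 1.42.0, limma-voom 3.58.1, other size factors, no filter, no batch term, a replicate block, batch 1 alone and each library left out. Shared replicate numbers within batch 1 were checked for pairing: correlations of deviations were -0.04 to 0.04, so numbers were not taken as pairs. Values in every library are given for the 6 called members with the largest change each way in each comparison between 2 groups, the 6 interaction calls and the most abundant member of each role, 28 in all; some of these are given by their range or log2 change alone. The result for 1 further promoter motif is not reported here. Members and lists were chosen with earlier results of these data known.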

Additional observations from a re-analysis of the deposited data

Results flagged for a closer look

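In 11 of the 112 groups of 5 libraries examined for the 28 members, 1 library lay far from the other 4. The share of about 5% that chance would mark assumes 5 libraries that are alike. These come from 3 batches and the members share them, so 11 of 112 cannot be set against 5%. The wild-type IFNγ library of batch 2 did so for 4 members, being the highest of its group for Eif4a1 (6090.1 CPM), Eef2 (2806 CPM), Eef1b2 (401 CPM) and Eif1b (39.1 CPM). The knockout vehicle library of batch 2 did so for Eif1a (152 CPM), Eef1aknmt (36.2 CPM) and Eif1b (10.03 CPM). Eef1aknmt also stood apart in the knockout IFNγ library of batch 2 (15.7 CPM). The knockout IFNγ library of batch 3 stood apart for Eef1b2 (310.4 CPM), the lowest of its group, and for Eif4g3 (64.3 CPM), the highest. Eif5 was highest in the wild-type IFNγ library of batch 3 (509 CPM). All 11 values are from batches 2 and 3, each of which has 1 library per group.

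The interaction test of the response to IFNγ between the lines passed for 6 of 60 members, where 6.5% of all genes passed. None of the 6 passed in all 30 alternatives, and 0 members passed without a batch term. The knockout change minus the wild-type change was 1.04 on the log2 scale for Eef1a1, 0.82 for Eif4ebp2 and 0.63 for Eef1b2. It was -0.94 for Eif1, -0.81 for Eif5 and -0.73 for Eif4g3. Eif4g3 had the opposite sign in batch 3 (-0.98, -0.98 and 0.30 in batches 1 to 3). Eef1b2 passed in 12 of the 30 alternatives and Eif1 in 19.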

How the results depend on the processing

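Of 79 called values of the 28 members, 50 kept their call and sign in every alternative run, 29 lost the call in at least 1 and 0 changed sign. Counts of rises and falls with IFNγ in wild type stayed within 1.5 times in every alternative, and limma-voom moved no count by more. For IFNγ in the knockout, rises were 3 with plain totals, without a batch term and without batch 2, 9 in batch 1 alone, and 3 to 5 with 1 library left out (3 without knockout vehicle replicate 4); falls were 20 without a batch term. For the lines under vehicle, higher members were 8 with plain totals, 2 with no filter, 2 without a batch term, 10 in batch 1 alone and 3 to 5 with 1 library of either group left out (3 without wild-type vehicle replicate 4 or knockout vehicle replicate 5), and 6 without wild-type IFNγ replicate 5, which shares the fit. Lower members were 6, 5 and 31 with plain totals, no batch term and batch 1 alone. Under IFNγ, higher members were 10 without a batch term and 42 in batch 1 alone. Positive interactions were 7 with DESeq2, 0 without a batch term, 48 in batch 1 alone, 13 without batch 2, 14 without batch 3 and 1 to 13 with 1 library left out. That count was 7 without wild-type IFNγ replicate 4, 10 and 13 without knockout IFNγ replicates 4 and 5, and 1 without knockout IFNγ replicate 1, 2 or 3, wild-type vehicle replicate 5 or knockout vehicle replicate 3. Negative interactions were 0 without a batch term, 5 in batch 1 alone and 1 to 4 with 1 library left out (1 without knockout vehicle replicate 1). Plain totals moved the median of all genes by -0.22 in wild type, -0.15 in the knockout and 0.12 between the lines under IFNγ. The cause of these shifts was not tested.

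With the replicate number as a block, rises and falls were 5 and 38 in wild type and 4 and 31 in the knockout, higher and lower members 4 and 9 under vehicle and 13 and 8 under IFNγ, and positive and negative interactions 1 and 2.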
